A study of Mus musculus with 6 samples.

Results

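Serpina3n and 9 further genes of the serpin superfamily were followed in whole prefrontal cortex of BTBR T+ Itpr3tf/J mice and of C57BL/6J controls. The 10 genes were Serpina3n, Serpina3g, Serpina3m, Serpina3k, Serpina3c, Serpine2, Serpini1, Serpinh1, Serpinb6a and Serpinf1. They were taken by gene name from one-colour Agilent arrays, which gave 14 probes among 41174 non-control probes. All serpins together had 78 probes, so 64 probes belonged to 49 other serpin genes. The 10 genes were chosen by name, with the differences between BTBR and C57BL/6J measured by their probes on these same arrays already known. Their differences are therefore a description, with no p-value, and p-values are given only for other genes. BTBR mice are inbred, lack a corpus callosum, show little social interest and serve as a model in autism research. C57BL/6J mice are the usual inbred reference. Each strain was represented by 3 untreated male mice aged 5 months, wild type for C57BL/6J, with 1 array per mouse made from 0.5 µg of RNA with an integrity number of 9. The labels give BTBR as the genotype of its 3 samples, while their background field names C57BL/6J.

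Serpins are a family of proteins that mostly inhibit proteases. An inhibitory serpin offers a protease a bait loop, and cleavage of that loop springs the serpin into a new shape that traps the enzyme. Some members have lost this activity and serve as chaperones, hormone carriers or secreted factors. The mouse Serpina3 genes are a cluster of copies on chromosome 12 that corresponds to a single human gene for alpha-1-antichymotrypsin, an acute-phase protein of the liver. In brain, Serpina3n is best known as a gene of reactive astrocytes, and it encodes a secreted inhibitor of proteases that include granzyme B.

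The probes that carry the values of the Serpina3 copies did not share long stretches. The longest run common to any pair of the Serpina3 probes on the array was 9 bases. The probes start at different positions of their transcripts, and none was compared with the transcripts of the other copies. Binding to another copy was therefore not tested. The first 30 bases of the 60-base probes are shown for 5 Serpina3 copies and for Serpinh1, so that the probes used can be told apart. Positions are those of the whole probes in mm9, per the file headers, and no letters are marked.
Serpina3n, plus strand, chr12:105651918-105651977: ttggcatgcctggattagatagtgactaac
Serpina3g, plus strand, chr12:105480045-105480104: tgtctcttgttgaccaactacgtaggactg
Serpina3m, plus strand, chr12:105632342-105632400: atctgtgcatgtttctgaacctggagtctg
Serpina3k, plus strand, chr12:105583645-105583704: caagttctcatgattctgtccagggctctg
Serpina3c, minus strand, chr12:105385352-105385411: gactctgagatggaccctatatgtggatct
Serpinh1, minus strand, chr7:106493971-106494030: ggggaggggaaatatgagcctttgttgctt

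All levels below are log2 signals relative to the 75th percentile of each array, so 0 is that percentile, and values are listed for C57BL/6J mice 1, 2 and 3 and then for BTBR mice 1, 2 and 3. Differences are BTBR minus C57BL/6J on the log2 scale, with the standard error (SE) of the fit, n = 3 mice per strain. Levels of different probes are not comparable. Between 28101 and 30665 probes (68.2% to 74.5%) were well above background on each array, and 30011 probes that were so on at least 3 of the 6 arrays entered the fit. The median difference over all tested probes was 0.04, and it was -0.09 with normexp background correction. All 8 markers of cortical neurons were well above background on all 6 arrays. Markers of other tissues stood apart on single arrays. The choroid plexus score (the median, over the tested genes of a marker list, of the deviation from the gene's mean over the 6 arrays) reached 2.73 on C57BL/6J 1, the striatum score 2.51 on C57BL/6J 3, and the neutrophil and red cell score 3.54 on BTBR 2. Liver genes stood apart on C57BL/6J 2 and are given below beside the serpins they moved with.

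Of the 14 member probes, 10 probes of 8 genes entered the fit. The gene names Serpina3k and Serpina3c had no probe that did. In the fit over all probes, 1 of the 10 lay past the threshold (adjusted p under 0.05) as higher and 1 as lower in BTBR, where 5.44% of the 30011 tested probes were called, 2.19% higher and 3.25% lower. Values of the strains did not overlap on 3 of the 10 probes, against 22.8% of all tested probes. These shares come from the contrast that chose the genes and nothing is read from them.

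**Figure D1:**
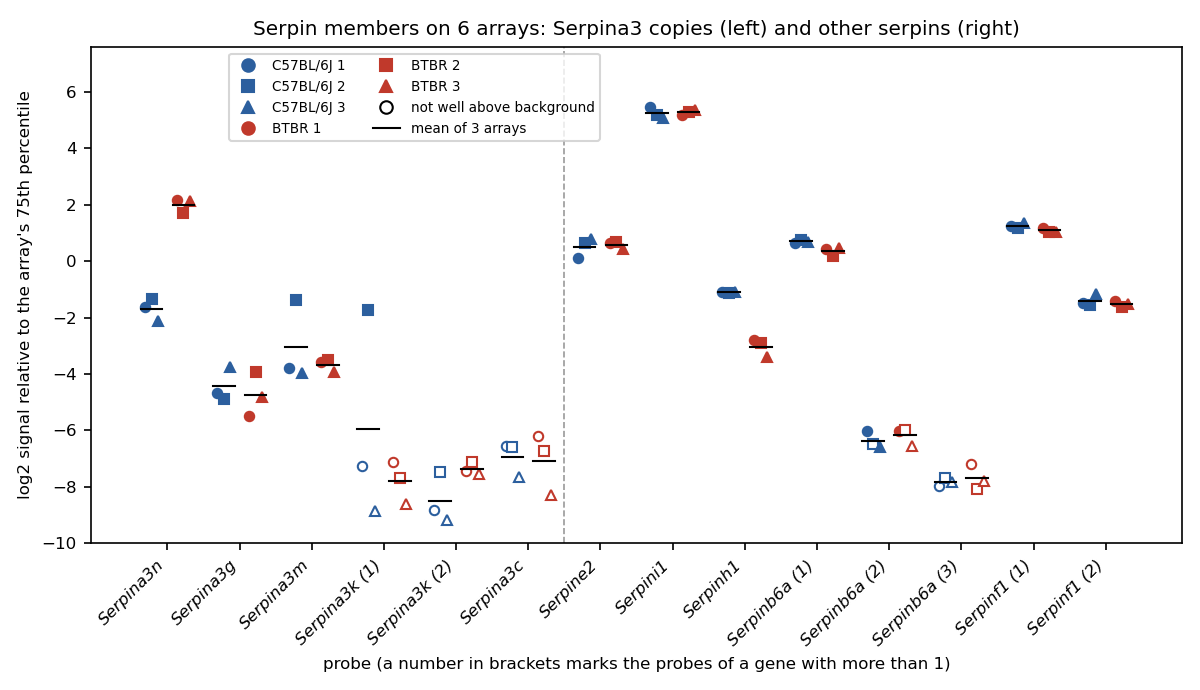
Log2 signal relative to the 75th percentile of each array (vertical axis) for the 14 member probes (horizontal axis) on 3 C57BL/6J (blue) and 3 BTBR (red) arrays; open symbols were not well above background and bars are means of 3 arrays. Serpina3n lay between -2.11 and -1.35 in C57BL/6J and between 1.72 and 2.16 in BTBR, while Serpinh1 lay between -1.12 and -1.08 and between -3.39 and -2.80.

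Serpina3n was far higher in BTBR. Its single probe read -1.61, -1.35 and -2.11 in C57BL/6J and 2.16, 1.72 and 2.14 in BTBR. All 3 BTBR values lay above the C57BL/6J values, and the lowest BTBR value exceeded the highest C57BL/6J value by 3.07. The mean was -1.69 ± 0.39 in C57BL/6J and 2.01 ± 0.25 in BTBR (SD, n = 3 each). The difference was 3.70 (SE 0.23), a 13-fold higher signal. Of the 30011 tested probes, 17 had a larger increase, and 99 had a larger difference in either direction. This rank comes from the contrast that chose the gene, and nothing is read from it. The arrays lay on 2 slides, with mice 1 and 2 of each strain on the first and mouse 3 of each on the second. The difference was 3.42 within slide 1 and 4.25 within slide 2. No second Serpina3n probe was on the array, so the value rests on 1 sequence.

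The other copies gave no such pattern. Serpina3g, an intracellular inhibitor of lysosomal cathepsins in leukocytes, read -4.66, -4.89 and -3.75 in C57BL/6J and -5.50, -3.95 and -4.81 in BTBR. The strains overlapped, and the difference was -0.32 (SE 0.46). The highest Serpina3g value in each strain came from C57BL/6J 3 and BTBR 2, the arrays with the highest striatum scores of 2.51 and 0.54, and the part of other tissue in this level was not tested.

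Serpina3m, whose probe lay 19.6 kb from that of Serpina3n, read -3.80, -1.37 and -3.97 in C57BL/6J and -3.58, -3.51 and -3.94 in BTBR. One C57BL/6J array stood above the other 5, which lay within a narrow band. The difference was -0.63 (SE 0.68), and it became 0.21 without C57BL/6J 2. The nearest measured copy to Serpina3n thus showed a difference that changed sign with 1 array.

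Serpina3k, related to the kallikrein-binding serpins, was well above background on C57BL/6J 2 alone. That probe read -7.26, -1.73 and -8.86 in C57BL/6J and -7.13, -7.70 and -8.60 in BTBR. The C57BL/6J mean averages C57BL/6J 2 with arrays not well above background, so no bound on the strain difference is given. A second Serpina3k probe, with no position in the file, and the Serpina3c probe were well above background on none of the 6 arrays. Serpina3c read -6.54, -6.58 and -7.67 in C57BL/6J and -6.21, -6.74 and -8.28 in BTBR.

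Outside the cluster, Serpinh1 stood lower in BTBR. It encodes Hsp47, a chaperone of the endoplasmic reticulum that binds procollagen and does not inhibit proteases. Its probe read -1.09, -1.12 and -1.08 in C57BL/6J and -2.80, -2.92 and -3.39 in BTBR. All 3 BTBR values lay below the C57BL/6J values, which were within 0.04 of each other. The mean was -1.10 ± 0.02 in C57BL/6J and -3.03 ± 0.31 in BTBR (SD, n = 3 each). The difference was -1.94 (SE 0.17), a 3.83-fold lower signal, with -1.76 within slide 1 and -2.30 within slide 2. The size depended on the values used, since the authors' own deposited matrix gave a difference of -1.09 and normexp correction gave -1.55. The array held no second Serpinh1 probe either, so this difference also rests on 1 sequence.

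Markers of 2 cell types moved with Serpinh1. The score of 8 mature oligodendrocyte markers was 0.13 to 0.49 on the C57BL/6J arrays and -0.45 to -0.20 on the BTBR arrays. Mag, Opalin and Cldn11 were lower in BTBR, 3 of 8, by limma with Benjamini-Hochberg adjustment over all probes (adjusted p 0.0171, 0.0254 and 0.0424), where 5.29% of all genes, each by its brightest tested probe, were called. All 3 calls were lost with the replicate block (adjusted p 0.0817, 0.0718 and 0.153) and with normexp correction. The score of 7 meningeal fibroblast markers was -0.00 to 0.24 on the C57BL/6J arrays and -0.31 to -0.06 on the BTBR arrays, and 0 of 7 passed. The 8 astrocyte markers had scores of -0.11 to 0.10 and -0.10 to 0.10, with 0 of 8 past the test. The part of these cell types in the Serpinh1 difference was not tested. In whole tissue, fewer cells of a type and less RNA per cell cannot be told apart.

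Hsp47 acts on collagen chains, and these did not pass the test here. The 5 chains in the partner list, Col1a1, Col1a2, Col3a1, Col4a1 and Col4a2, had differences from -0.72 to 0.40, with limma adjusted p between 0.0992 and 0.384. Col1a1 read lowest at -0.72 (SE 0.19) and Col4a2 highest at 0.40 (SE 0.10). The chains were set apart from the rest of that list after their values were seen. Col1a1, Col1a2 and Col3a1 are also among the meningeal fibroblast markers scored above, so that score and these chains are not separate observations.

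The remaining members showed small differences. Serpine2, or protease nexin-1, is a thrombin inhibitor made by glia. It read 0.10, 0.63 and 0.77 in C57BL/6J and 0.66, 0.69 and 0.43 in BTBR. The strains overlapped, with a difference of 0.09 (SE 0.20). Serpini1, or neuroserpin, is the neuronal inhibitor of tissue plasminogen activator. Its probe read 5.47, 5.20 and 5.07 in C57BL/6J and 5.20, 5.30 and 5.38 in BTBR. The difference was 0.05 (SE 0.14).

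Serpinf1 encodes pigment epithelium-derived factor, a secreted serpin without inhibitory activity. Its first probe read 1.24, 1.17 and 1.35 in C57BL/6J and 1.19, 1.05 and 1.04 in BTBR, a difference of -0.16 (SE 0.11). The second probe differed by -0.12 (SE 0.14), so both probes pointed the same way and overlapped between strains. Serpinb6a, an intracellular inhibitor, read 0.66, 0.75 and 0.70 in C57BL/6J and 0.42, 0.20 and 0.47 in BTBR on one probe. Here the strains did not overlap, by a margin of 0.19, and the difference was -0.33 (SE 0.11). A second Serpinb6a probe, aimed at another transcript and well above background on 3 arrays, gave 0.19 (SE 0.22) with overlapping strains, and its last probe was well above background on none.

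The cluster copies and the other members were set side by side by their medians, as a description of few probes. The median difference was -0.32 over the 3 tested Serpina3 probes and -0.12 over the 7 tested probes of serpins elsewhere. The Serpina3 median is the value of Serpina3g, between 3.70 for Serpina3n and -0.63 for Serpina3m. The gap between these medians was -0.20, and it became 0.40 without C57BL/6J 2, -0.65 without BTBR 2 and 0.34 within slide 2. The median over all tested probes was 0.04.

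Sequence upstream of the Serpina3 copies was read from RefSeq's promoter windows (GRCm38.p6), which hold Serpina3n, Serpina3g and Serpina3c among the members of the cluster. Serpina3n and Serpina3c are shown because their windows were the most alike. They were 89.9% identical, against a median of 45.8% over 78 pairs of serpin windows and 68.6% for the next pair, Serpina3b and Serpina3n. The Serpina3c probe was not well above background in either strain. The 250 bases before each start are given, and capitals mark matches to a glucocorticoid receptor motif (GNACA, NNN, then TGTNC) and to an NF-kB motif (GGGNN, then TTTCC).
Serpina3n, plus strand, chr12:104406458-104406707: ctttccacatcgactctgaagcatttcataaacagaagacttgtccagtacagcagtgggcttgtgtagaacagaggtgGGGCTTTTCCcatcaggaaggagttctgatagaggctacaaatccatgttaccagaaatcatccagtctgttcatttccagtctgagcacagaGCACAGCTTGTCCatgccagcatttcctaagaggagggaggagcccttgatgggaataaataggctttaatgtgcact
Serpina3c, minus strand, chr12:104153873-104154122: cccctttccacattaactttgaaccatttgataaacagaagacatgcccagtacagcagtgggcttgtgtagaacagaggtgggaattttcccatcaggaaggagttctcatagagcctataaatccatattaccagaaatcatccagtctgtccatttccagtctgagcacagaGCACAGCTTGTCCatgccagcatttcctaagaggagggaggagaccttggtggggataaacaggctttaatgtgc

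Both windows held GCACAGCTTGTCC, 78 bases before the start in Serpina3n and 75 bases before it in Serpina3c. Motifs were searched on both strands of windows of 300 bases, and the receptor motif occurred in 0.475% of 32851 RefSeq windows. The NF-kB motif, found 171 bases before the Serpina3n start, occurred in 1.63% of windows. The Serpina3n window held no TTCNNNGAA (a STAT motif), which 8.30% of windows held, while the Serpina3g window held TTCCCAGAA 33 bases before its start. That window also held an NF-kB match, GGGGGTTTCC, 85 bases before the start. The motifs did not overlap one another in the Serpina3n window. These matches are descriptions of letters.

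The rest of the serpin family was tested. Of the 64 other serpin probes, 23 probes of 20 genes entered the fit, and 30 were well above background on 0 arrays. None of the 23 passed the limma test (0 of 23, against 5.44% of all tested probes). An unadjusted p under 0.05 was found for 4 of them, against 5028 of all 30011 tested probes. The median difference of the 23 was -0.00, and single differences ran from -1.07 to 1.11. The 4 were Serpinf2 (alpha-2-antiplasmin) at -1.01, Serping1 (C1 inhibitor) at -0.36, Serpine3 at 0.91 and the cluster copy Serpina3j at 0.71, with limma adjusted p of 0.235, 0.279, 0.243 and 0.202. In 14 of 18 alternative settings the count also stayed at 0. Serpine3 passed without BTBR 3 (1.30, adjusted p 0.0132) and within slide 1, Serpine3 and Serpina3j passed with array weights, and Serpina1d passed without C57BL/6J 2, as described further on.

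Among the other serpins that gave strong signals without passing, Serpinb1a, an inhibitor of neutrophil elastase, read 0.98, 1.02 and 1.49 in C57BL/6J and 0.77, 0.83 and 0.96 in BTBR. Its difference was -0.31 (SE 0.16; limma adjusted p 0.425). Serpind1, or heparin cofactor II, differed by -0.00 (SE 0.15). Serpinb6b, a close relative of Serpinb6a, differed by -0.08 (SE 0.15). The plot of all tested serpin probes places Serpina3n and Serpinh1 at the opposite ends of the family.

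**Figure D2:**
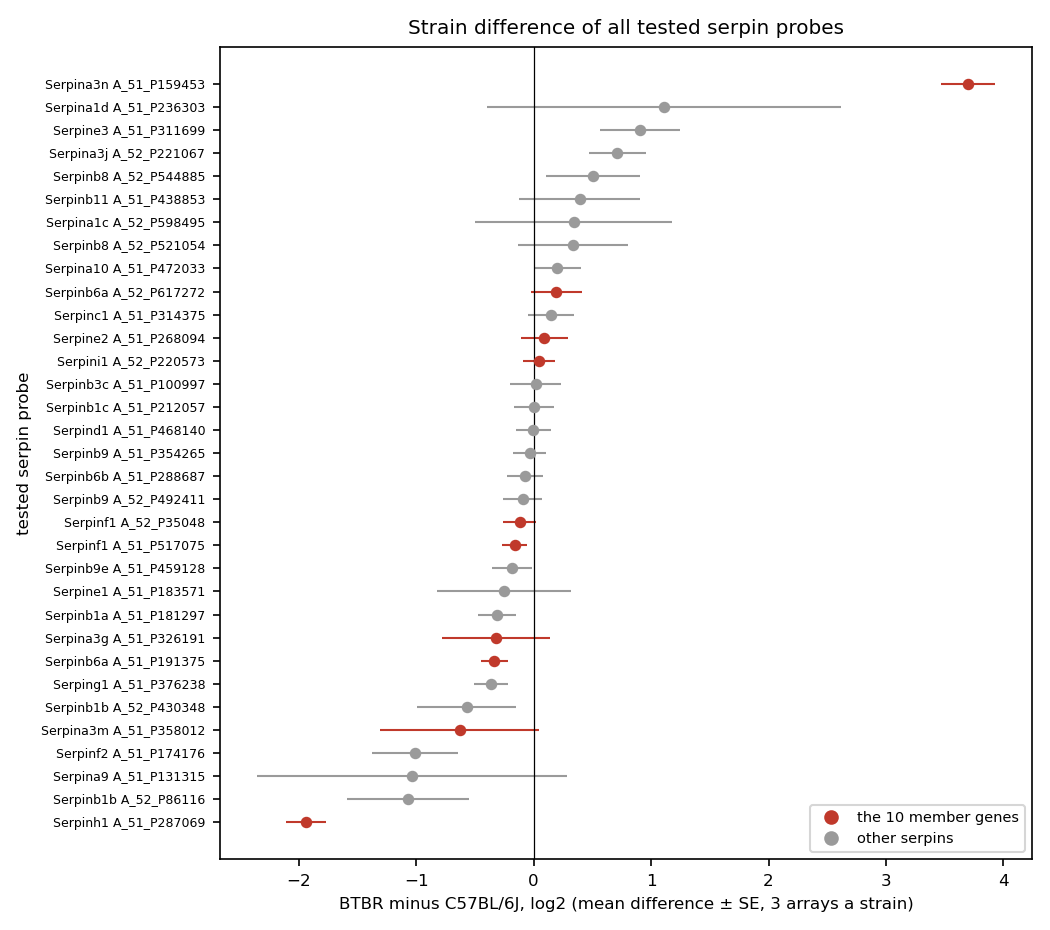
Difference between BTBR and C57BL/6J (horizontal axis, log2, point with SE as bar, 3 arrays per strain) for every tested serpin probe (vertical axis), with the 10 member genes in red and other serpins in grey. Serpina3n lies at 3.70 and Serpinh1 at -1.94, and the other serpins lie between -1.07 and 1.11.

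Several serpins of blood plasma were set apart by 1 array. On C57BL/6J 2, Serpina3m exceeded the next highest array by 2.14 and Serpina1d (alpha-1-antitrypsin) by 2.11. Serpina3k and 1 of the 2 probes of Serpinc1 (antithrombin) were well above background on that array alone, so only a lower limit of their gap can be given. Set against the highest of the other arrays' lowest signals well above background, it was at least 4.09 for Serpina3k and over 2 for Serpinc1. These were 4 of 78 serpin probes with a gap over 2 on that array when measured so, where 0.0850% of all probes had one. Serpina1c was also highest there, by 1.15, and Serpina6 (corticosteroid-binding globulin) by at least 1.13. Other plasma serpins were not highest on that array. Against the highest other array, the stronger Serpina10 probe lay at -0.24, Serpind1 at -0.29, Serping1 at -0.45 and the other Serpinc1 probe at -0.16. Liver genes were high on the same array. Alb, encoding albumin, read 0.54 there and -8.21 to -5.66 on the other 5 arrays. Ahsg (fetuin-A) read -0.57 there and -7.88 to -6.96 elsewhere, and Fgb (fibrinogen beta chain) read -1.89 there and -7.85 to -6.35 elsewhere. Of the 7 liver markers, 6 were highest on C57BL/6J 2, and Ttr was highest on C57BL/6J 1. The part of liver or plasma RNA in the serpin values was not tested. Serpina3n read -1.35 on C57BL/6J 2, beside -1.61 on C57BL/6J 1.

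Serpina1d changed its standing with that array. It read -4.37, 1.10 and -4.76 in C57BL/6J and -1.01, -1.69 and -1.99 in BTBR. With all arrays the difference was 1.11 (SE 1.51; limma adjusted p 0.803). Without C57BL/6J 2 it was 3.00 (SE 0.32; limma adjusted p 0.0111), and it was then the only one of the 23 other serpin probes past the test. Serpina1c differed by 1.36 without that array and did not pass. Serpina1b was not well above background on the other C57BL/6J arrays, so no difference is given. The Serpina1 copies share much sequence, so the probes may not tell them apart.

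**Figure D3:**
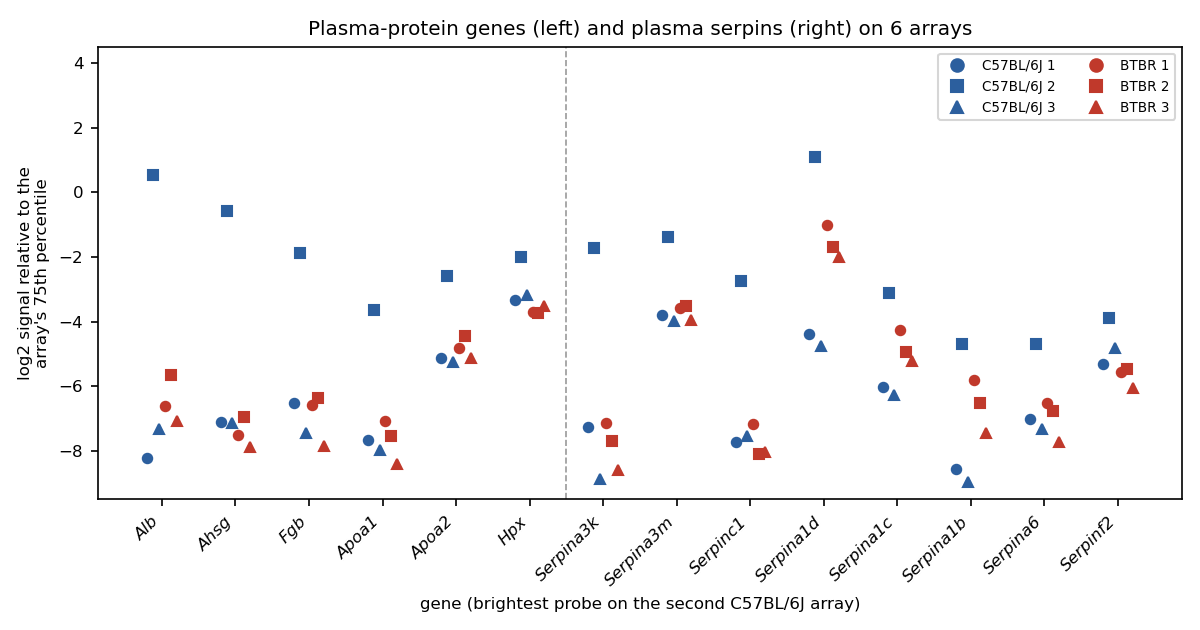
Log2 signal relative to the 75th percentile of each array (vertical axis) for 6 liver marker genes (left of the line) and 8 plasma serpins (right of the line) on 6 arrays, C57BL/6J in blue and BTBR in red. C57BL/6J 2 (blue squares) is the highest array for each of the 14, and Serpina1d and Serpina1c are higher in all 3 BTBR mice than in C57BL/6J 1 and 3. The genes drawn were picked with their values known. Ttr, Serpina10, Serpind1, Serping1, Serpina7, Serpina9 and the second probes of Serpinc1 and Serpina3k were not highest on that array and are not drawn.

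Genes around the Serpina3 copies were tested to see whether the strain difference reached beyond Serpina3n. Within 1 Mb of the copies, whose probes span 267 kb, the array held 40 probes of non-serpin genes or transcripts, and 32 entered the fit. Of these, 0 were higher and 1 was lower in BTBR (3.12%, against 5.44% of all tested probes). An unadjusted p under 0.05 was found for 10 of the 32, against 5028 of all 30011 tested probes. The median difference of the 32 was -0.02, with a range from -1.20 to 1.01. The nearest of the 32 to the Serpina3n probe lay at 279 kb (Dicer1) and, on the other side, at -670 kb. Closer non-serpin probes, such as that of Gsc at 58 kb, were well above background on no array. The immediate neighbours of Serpina3n were therefore not tested. The 1 call was a probe of Otub2, a deubiquitinase gene, at -0.77 (SE 0.16; limma adjusted p 0.0475). The other probes of Otub2 read higher in BTBR, by 1.01 (SE 0.34) and 0.44 (SE 0.12), with limma adjusted p of 0.196 and 0.122. In the file the called probe lies on the minus strand and the other probes of Otub2 on the plus strand. It passed in 6 of 18 alternative settings, and not without C57BL/6J 1, C57BL/6J 2, BTBR 1 or BTBR 2. The lowest difference, -1.20 (SE 0.26) for Prima1, had an adjusted p of 0.0535, and it passed in 7 of 18 settings, among them median scaling, quantile normalization and the trend and robust prior. The authors' values instead called the Otub2 probe at 0.44 as higher, at 0.47 (limma adjusted p 0.0375).

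**Figure D4:**
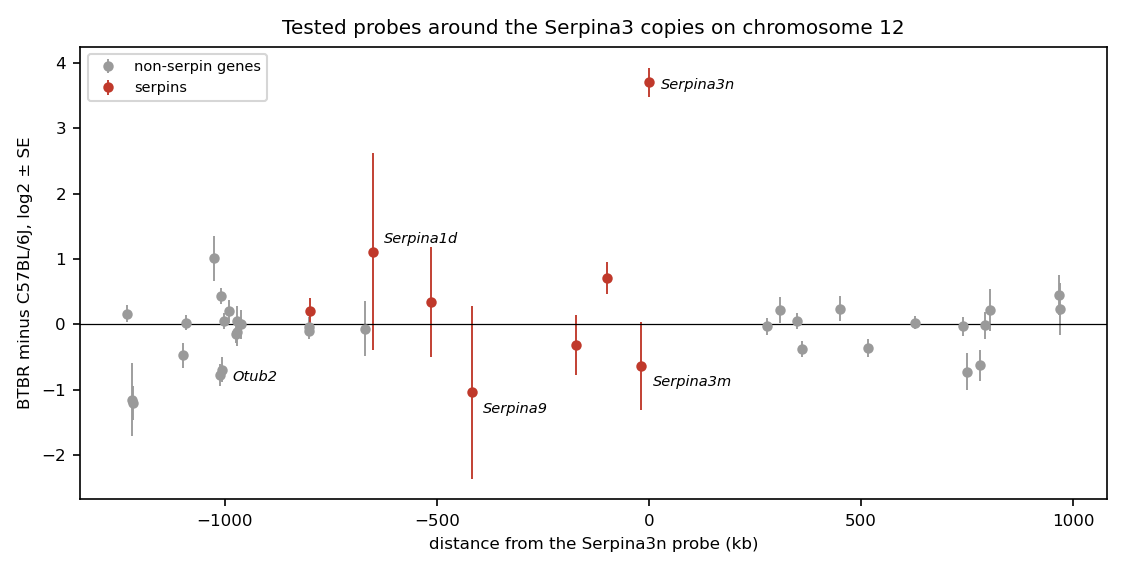
Difference between BTBR and C57BL/6J (vertical axis, log2, with SE as bar, 3 arrays per strain) for tested probes around the Serpina3 copies by distance from the Serpina3n probe in kb (horizontal axis), serpins in red and other genes in grey. Serpina3n stands at 3.70, while the 32 probes of other genes lie between -1.20 and 1.01.

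Serpina3n is a common marker of reactive astrocytes, so other genes of that state were followed. Of 29 tested genes in a list of 36, 0 were higher and 3 were lower in BTBR, and the median difference was -0.19, against 0.01 over all genes by their strongest probe, of which 5.29% were called, 2.05% higher and 3.25% lower. Gfap, the intermediate filament of astrocytes, read 1.16, 0.95 and 1.65 in C57BL/6J and -0.01, 0.07 and 0.04 in BTBR. The strains did not overlap, and the difference was -1.21 (SE 0.19; limma adjusted p 0.0153). The other Gfap probes read -0.57 and -0.46. The oligodendrocyte and meningeal scores given above were lower on the same arrays, and the part of these cells in the Gfap and list values was not tested. Tm4sf1, a tetraspanin-like membrane protein, had a difference of -0.70 (SE 0.10; limma adjusted p 0.0121), and Gbp2, an interferon-induced GTPase, had a difference of -0.63 (SE 0.13; limma adjusted p 0.0405). H2-T23 and Hspb1, with the strongest signals among those that did not pass, differed by -0.40 and 0.14. Vim, another filament gene of astrocytes, differed by -0.06 (SE 0.14), and Cd44 by 0.44 (SE 0.37), both named after their values were seen.

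These calls depended on single mice. The list count ran from 0 to 4 when 1 mouse was left out, and it was 1 without C57BL/6J 1, C57BL/6J 2 or BTBR 2 and 0 without BTBR 1. Some settings called genes of the list higher in BTBR, with 2 higher and 2 lower within slide 1, 2 higher and 7 lower with array weights, and 1 higher and 3 lower without BTBR 3. The Gfap call was lost without C57BL/6J 1, BTBR 1 or BTBR 2 (adjusted p up to 0.0741), with differences from -1.26 to -1.19. The Tm4sf1 call was lost without C57BL/6J 1, C57BL/6J 2 or BTBR 1, and the Gbp2 call without any 1 mouse other than BTBR 3.

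Signals that act upstream of acute-phase serpins did not pass the test. The list held cytokines of the interleukin-6 family, their receptors, JAK and STAT proteins, NF-kB proteins and glucocorticoid targets. Of 25 tested genes, 0 were called by limma, against 5.29% of all genes. Among the 25, 3 had an unadjusted p under 0.05, against 5028 of all 30011 tested probes. The median difference of the 25 was 0.05. Array weights called 2 and moderation with a trend and robust prior called 1. Jak1 and Sgk1, the strongest signals among them, differed by 0.01 (SE 0.13) and -0.11 (SE 0.31). Stat3, a transcription factor of acute-phase genes, differed by -0.04 (SE 0.11), and Il6st, the shared receptor chain gp130, by -0.35 (SE 0.12; limma adjusted p 0.2), both named after their values were seen.

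Proteases that serpins inhibit, or that belong to the same enzyme classes, included 1 rise and 1 fall among 24 tested genes (8.33%, against 5.29% of all genes), with a median difference of 0.05. Gzmk, a granzyme of cytotoxic lymphocytes, read -7.77, -6.74 and -7.28 in C57BL/6J and -4.45, -4.64 and -4.95 in BTBR. It was well above background on the 3 BTBR arrays and on no C57BL/6J array, so it entered the fit through the BTBR arrays alone. The measured means were -7.26 and -4.68. The BTBR mean was at least 4.13-fold higher, a bound set against the lowest signal well above background on the C57BL/6J arrays and not tested. The limma adjusted p of 0.00344 is that of the measured means. With entry through the BTBR arrays alone, it is not taken as support. The 1 rise counted above rests on Gzmk. With normexp correction its difference was 0.12 (adjusted p 0.972), and in the authors' matrix it was 0.24 (adjusted p 0.0538), so neither setting called it. Klk6, a kallikrein-related protease of oligodendrocytes, lay between -1.03 and -0.21 in C57BL/6J and read -2.37, -2.93 and -2.37 in BTBR. Its difference was -1.81 (SE 0.27; limma adjusted p 0.0141), and the oligodendrocyte scores given above moved with it, their part being not tested. Htra1 and Ctsb, the strongest signals that did not pass, differed by 0.09 and -0.10.

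Receptors and partners of serpins showed 1 rise among 27 tested genes (3.70%, against 5.29% of all genes), with a median difference of 0.07. Lrp2, the endocytic receptor megalin, read -6.04, -6.67 and -6.74 in C57BL/6J and -5.05, -5.25 and -4.57 in BTBR, with a difference of 1.53 (SE 0.25; limma adjusted p 0.0199). It was well above background on 1 C57BL/6J array and 3 BTBR arrays, and the call was lost without C57BL/6J 2, C57BL/6J 3 or BTBR 1 (adjusted p 0.0619 to 0.0874). Normexp correction reduced its difference to 0.02 and the authors' matrix gave 0.15. Rpsa and Calr did not pass, at 0.28 (SE 0.12) and 0.34 (SE 0.12).

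Protease inhibitors of other families had 1 rise and 1 fall among 19 tested genes (10.5%, against 5.29% of all genes), with a median difference of -0.05. Slpi, a secreted inhibitor of leukocyte elastase, read -4.44, -3.51 and -4.88 in C57BL/6J and -2.43, -1.90 and -2.23 in BTBR. The difference was 2.09 (SE 0.35, limma adjusted p 0.0212). The Slpi call was lost without C57BL/6J 1 or without any 1 of the 3 BTBR mice (adjusted p 0.0545 to 0.0934). It was also lost within slide 1 (1.81, limma adjusted p 0.0572) and with normexp correction (0.99, limma adjusted p 0.851). The authors' matrix gave a smaller difference of 0.81, which passed (limma adjusted p 0.0118). Cst7, or cystatin F, an inhibitor of cathepsins in immune cells, read -4.33, -3.92 and -3.70 in C57BL/6J and -5.38, -5.35 and -5.19 in BTBR. Its difference was -1.32 (SE 0.18; limma adjusted p 0.00927). It was not well above background on all 6 arrays. The authors' matrix gave -0.26 (limma adjusted p 0.0680) and normexp correction -0.82 (limma adjusted p 0.962), so neither setting called it. Of 6 microglial markers, Cx3cr1, the fractalkine receptor, was higher in BTBR (1.22, SE 0.12; limma adjusted p 0.00263, and 0.0616 with normexp correction) and the other 5 did not pass. Microglial scores were -0.22 to 0.09 in C57BL/6J and -0.11 to 0.10 in BTBR, and their part in the inhibitor values was not tested. Cst3 and Timp2, the strongest signals that did not pass, differed by 0.34 (SE 0.09) and -0.04 (SE 0.19).

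The genes whose array pattern lay closest to that of Serpina3n were found by the root mean square distance between log2 deviations from the mean over the 6 arrays. The 5 closest were Ablim1 (0.164), Dera (0.199), Myl1 (0.258), Rbm45 (0.267) and Cuedc1 (0.309). Ablim1, an actin-binding LIM protein, read -4.06, -4.04 and -4.60 in C57BL/6J and -0.55, -0.52 and -0.48 in BTBR. Dera and Rbm45 were well above background on the BTBR arrays alone, so they entered the fit and this ranking through those arrays. Their distances rest in part on C57BL/6J signals not well above background. For Dera the BTBR mean was at least 3.53-fold higher, as a bound. For Rbm45 the measured mean was 15.9-fold higher, which is not a lower limit. Its C57BL/6J signals exceeded the lowest signals well above background on their arrays. Ablim1, Myl1 and Cuedc1 differed by 3.72, 3.38 and 3.27. All 5 were chosen for their likeness to Serpina3n, so these values are descriptions. Probes of other genes in the window around Serpina3n were not among them.

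The direction of the Serpina3n and Serpinh1 differences was the same in each setting run. Across 17 settings the Serpina3n difference ranged from 3.13 to 4.25 and the Serpinh1 difference from -2.30 to -1.09. Serpinb6a on its first probe stayed between -0.39 and -0.23 and Serpinf1 on its first probe between -0.31 and -0.06. Serpine2 (-0.34 to 0.31), Serpini1 (-0.08 to 0.31), Serpina3g (-1.06 to 0.06), Serpina3m (-1.43 to 0.21) and the second probes of Serpinf1 (-0.35 to 0.03) and Serpinb6a (-0.36 to 0.38) took both signs.

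**Figure D5:**
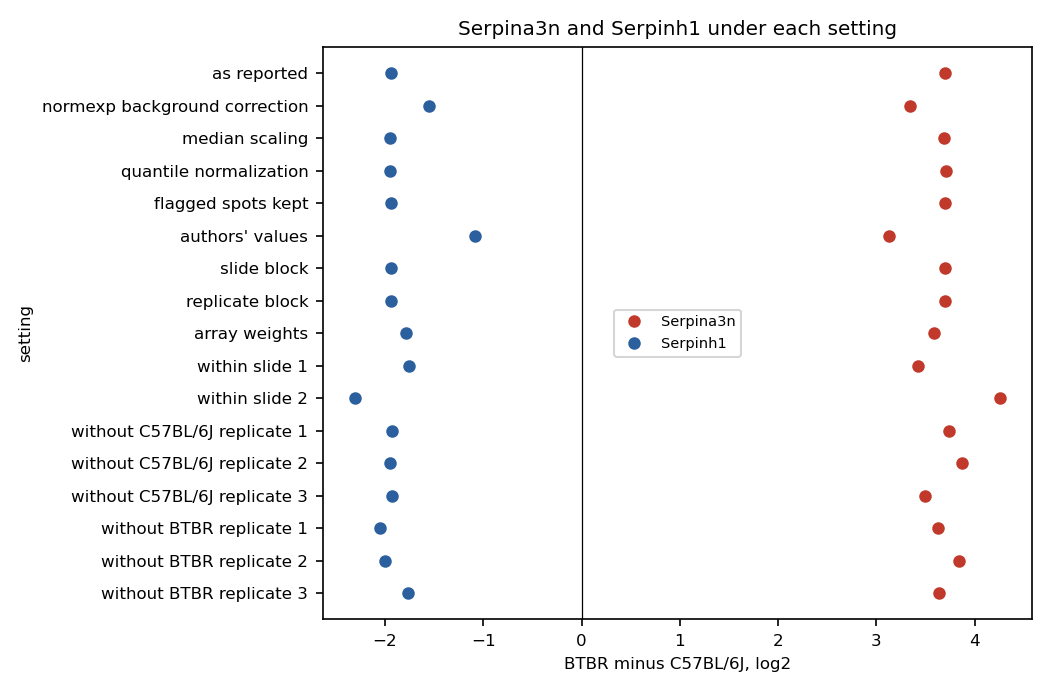
Difference between BTBR and C57BL/6J (horizontal axis, log2) for Serpina3n (red) and Serpinh1 (blue) as reported and under 16 other settings (vertical axis), which cover background correction, scaling, blocks, weights, single slides and leaving out 1 mouse. Serpina3n stays between 3.13 and 4.25 and Serpinh1 between -2.30 and -1.09.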

How the data were processed

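RNA of whole prefrontal cortex from 6 mice was hybridised to one-colour Agilent arrays, and the design text gives 3 mice per group. The deposited scanner files hold intensity values on a linear scale, which Agilent's Feature Extraction software made, in version 10.7.3.1 by the file headers and 9.1 by the submitters' processing notes. Spot flags, which are other values than signals, were deposited in the same files. The authors' matrix of log2 values served as an alternative. How it was scaled is not given in the sources available, column medians were 8.82 to 8.83, and its strain differences were smaller (slope 0.549, r 0.895 across probes), in the same direction.

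Processed signals were taken to log2 and centred on the 75th percentile of their array. Flagged spots (54 to 107 per array) were left out where a probe had another spot, spots of a probe were averaged, and no probe was saturated. Probes well above background on at least 3 arrays, counted over both strains, were fitted with limma 3.58.1 in R 4.3.3 (with data.table, version 1.17.8), with Benjamini-Hochberg adjustment over all 30011 probes and a threshold of 0.05. An exact permutation test of 3 against 3 cannot go below 0.1. Precision is limited by the number of arrays. On data simulated for this comparison with 30011 probes, the fit found 0% of probes with a 1.5-fold change, 22% with a 2-fold change and 84.5% with a 4-fold change. Only 200 probes were changed in each simulation, against 1632 called in the data, so these shares may not carry over to the data.

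The members and the gene lists were chosen with earlier results of these data known. Named were all members, other serpins and neighbours past the test, the strongest 5 other serpins and 2 genes per list that did not pass, list genes past the test and the 5 genes most like Serpina3n. List genes were represented by their strongest probe and named through RefSeq tables (GRCm38.p6), by accession for 27808 probes, symbol for 5509 and synonym for 379. The other 322 kept the file's name and 7156 had none. For a bound, each array of the dimmer strain got the higher of its own signal and its lowest signal well above background, and the mean of these was compared with the brighter strain's mean. Tables and figures used Python 3.11.15, numpy 2.4.6, pandas 2.3.3, Biopython 1.88 and matplotlib 3.10.9. Alternatives covered background correction, scaling, filters, flagged spots, the authors' values, blocks, the prior, array weights (whose iteration stopped early), single slides and leaving out mice.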

Additional observations from a re-analysis of the deposited data

How the results depend on the processing

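Mice with the same number did not deviate together (correlations of 0.03, -0.17 and -0.08, and 0 of 6 arrays correlated best with its own number in the other strain). With the replicate block the fit called 922 probes against 1632, 0 probes around the Serpina3 copies, 1 reactive astrocyte gene and 0 receptors and partners. Normexp correction called 170 probes and 0 in the lists of reactive astrocyte genes, proteases, receptors and other inhibitors and around the copies. Array weights called 3928 probes, 2 other serpins, 6 probes around the copies (Otub2 on 2 of them, in opposite directions), 9 reactive astrocyte genes, 2 upstream genes, 4 proteases, 6 receptors and 4 other inhibitors. Within slide 1, 1 other serpin, 2 probes around the copies, 0 receptors and 1 other inhibitor were called. The trend and robust prior called 1 upstream gene and 2 receptors. With probes well above background on all 6 arrays, 2 probes around the copies, 0 receptors and 1 other inhibitor were called, and the authors' values called 1 other inhibitor. No filter and the slide block each called 0 probes around the copies. The Serpina3n difference was 3.34 with normexp correction, 3.13 with the authors' values and 4.25 within slide 2, and the gap between copies and other members was 0.34 within slide 2.

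Leaving out 1 mouse gave 858 to 1472 probes (858 without BTBR 1, 888 without C57BL/6J 2 and 951 without C57BL/6J 1), 0 to 1 other serpins, 0 to 3 probes around the copies (3 without C57BL/6J 3, with Prima1 and an unnamed transcript beside Otub2), 0 to 4 reactive astrocyte genes, 0 upstream genes, 2 to 3 proteases, 0 to 1 receptors, 1 to 2 other inhibitors, 3.49 to 3.87 for Serpina3n and -0.65 to 0.40 for the gap. Each oligodendrocyte call was lost without BTBR 1 or without C57BL/6J 1, Mag also without C57BL/6J 2, Opalin also without BTBR 2 or BTBR 3, and Cldn11 without any 1 mouse other than BTBR 3. Probes near background limit Gzmk, Lrp2, Serpina3k and Serpina3c, and Cst7 was not well above background on all 6 arrays. In the simulation with 3 mice per strain, 0% of probes with a 1.5-fold change were found. In the data, calls near that size were made, such as Gbp2 at -0.63 on the log2 scale.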

Other observations

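Some serpins outside the 10 genes had a signal on 1 array that no other array shared. Serpina7, which encodes thyroxine-binding globulin, read 0.90 on BTBR 3 and was well above background on that array alone, at least 6.73 on the log2 scale above the others. Serpini2 and Serpinb9f were well above background on BTBR 1 alone, at -5.19 and -5.68.

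Serpina9, a serpin of germinal-centre B cells, read -3.09, -1.98 and 1.46 in C57BL/6J and -2.69, -0.38 and -3.65 in BTBR. Its values fell in the order C57BL/6J 3, BTBR 2, C57BL/6J 2 and then the rest, and the striatum score led with the same arrays, at 2.51, 0.54 and -0.22. Of the 6 striatal markers, Drd1, which encodes a dopamine receptor, read 1.87 on C57BL/6J 3, -0.11 on BTBR 2 and -1.93 to -0.97 on the other arrays. The part of striatal tissue in the Serpina9 level was not tested, and Serpina9 and the striatal markers were set side by side after their values were seen.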
